A study of Sus scrofa with 6 samples.

Results

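GATA6, GATA2 and TFAP2C were followed across 6 pig cell samples, each hybridised to 1 Affymetrix Pig Genome Array. All probe sets to which the platform annotation gave exactly 1 of these symbols were taken. This found 4 of 23999 probe sets: 1 for GATA6 (Ssc.2258.1.S1_at), 2 for GATA2 (Ssc.4743.1.S1_at, here probe set 1, and Ssc.4743.1.S2_at, here probe set 2) and 1 for TFAP2C (Ssc.1426.1.S1_at). No filter on low values was applied, so all 4 entered every comparison.

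The somatic samples were porcine embryo fibroblasts (PEF) and porcine amniotic fluid stem cells (PAFSC). The other 4 samples were induced pluripotent stem (iPS) lines, made by returning differentiated cells to a state like that of the early embryo. The labels separate them by stage-specific embryonic antigens (SSEA), surface glycans used to mark pluripotent cells: PS24 carried SSEA1, SSEA3 and SSEA4, 30AC5 carried SSEA1, and iPF4-2 and iPSCs-w carried SSEA3 and SSEA4. PS24 and 30AC5 are called the SSEA1-labelled lines here, and iPF4-2 and iPSCs-w the SSEA3/SSEA4-only lines. The medium of all samples was DMEM with FBS. The iPS lines also had feeder layers of inactivated mouse embryonic fibroblasts, whose RNA cannot be told apart from that of the pig cells on these arrays. The labels name no reprogramming factors, no parental cells and no repeat culture, and they do not say which line came from which laboratory, so marker class and origin cannot be told apart. A p-value therefore sets a difference against the spread between these single samples, not between repeat cultures of a line.

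The early mammalian embryo sets aside extraembryonic lineages before the body forms. Primitive endoderm, also called hypoblast, gives rise to the yolk sac, and GATA6 is the zinc-finger transcription factor that drives its formation; GATA6 also acts in heart and gut. Trophectoderm gives rise to the placenta, and GATA2 and TFAP2C (AP-2 gamma) are transcription factors active in it. None of them is restricted to these lineages, since GATA2 is also a regulator of blood and endothelial cells and TFAP2C is also made in primordial germ cells and in naive pluripotent cells.

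The deposited values are on a log2 scale, and each probe set has its own zero. A value near 0 does not mean absence of the transcript, and the values of different probe sets are not levels that can be ranked against each other. In bulk RNA, a lower value from fewer expressing cells and one from less RNA per cell cannot be told apart.

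The PAFSC array stood apart. Its median was 0.70, against -0.06 to 0.05 on the other 5 arrays, and its SD over probe sets was 2.01, against 0.610 to 0.808. The 64 reporter probe sets, which are directed at sequences that are not pig genes, had a median of 2.03 on it, against -0.11 to 0.18 elsewhere. The mean difference of the 5' and 3' control probe sets for GAPDH, actin and EF1A was 1.90 for PAFSC and -1.90 for PS24, against -0.03 to 0.19 for the other 4. In PAFSC the controls disagreed, at 3.66 for GAPDH, 2.72 for actin and -0.70 for EF1A. In PS24 they were at -1.70, -2.03 and -1.98. Such differences are used as a measure of RNA integrity, but with a separate zero for each probe set they cannot be read directly as one. Results that use PAFSC are therefore given with and without it, and the part of these array differences in each result was not tested.

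GATA6 was high in both SSEA3/SSEA4-only lines. Its log2 value stood at -0.32 in PEF and -1.69 in PAFSC, at 0.53 and 0.63 in PS24 and 30AC5, and at 3.45 and 3.57 in iPF4-2 and iPSCs-w. Both SSEA3/SSEA4-only lines were above the other 4 arrays, PS24 and 30AC5 were close to each other, and PAFSC was lowest. On the arrays of iPF4-2 and iPSCs-w, 0.213% and 0.225% of probe sets had a higher value, against 14.0% in PS24 and 10.2% in 30AC5.

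The order of the GATA6 values was iPSCs-w, iPF4-2, 30AC5, PS24, PEF and PAFSC. The step of 0.12 between iPSCs-w and iPF4-2 was reached by 79.0% of all probe sets between the same arrays, and the step of 0.10 between 30AC5 and PS24 by 83.9%. Neither pair was separated beyond the usual spread between those arrays. The step of 2.82 from iPF4-2 down to 30AC5 was reached by 1.77% of probe sets, and the step of 0.85 from PS24 to PEF by 23.8%. The step of 1.38 from PEF down to PAFSC was reached by 58.1%, within the usual spread of those arrays.

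TFAP2C showed the same split of the iPS lines. Its log2 value stood at -1.06 in PEF and 1.57 in PAFSC, at -0.04 and 0.04 in PS24 and 30AC5, and at 2.89 and 2.65 in iPF4-2 and iPSCs-w. Both SSEA3/SSEA4-only lines were above every other array, the SSEA1-labelled lines were at almost the same value, and PEF was lowest. Both SSEA3/SSEA4-only lines were above the other 4 arrays for 8.48% of all probe sets, as for GATA6. The order was iPF4-2, iPSCs-w, PAFSC, 30AC5, PS24 and PEF. The steps of 0.24 between iPF4-2 and iPSCs-w and of 0.08 between 30AC5 and PS24 were reached by 61.8% and 86.2% of probe sets. Those of 1.08 from iPSCs-w to PAFSC and of 1.53 from PAFSC to 30AC5 were reached by 68.6% and 51.9%. Both involve PAFSC, the array with the widest spread, so they do not show how far the iPS lines were apart. Without PAFSC the next value below iPSCs-w, at 2.65, was that of 30AC5, at 0.04. The SSEA1-labelled mean minus the SSEA3/SSEA4-only mean was -2.77, a size reached by 1.20% of all probe sets. The step of 1.02 from PS24 to PEF was reached by 18.0%.

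**Figure D1:**
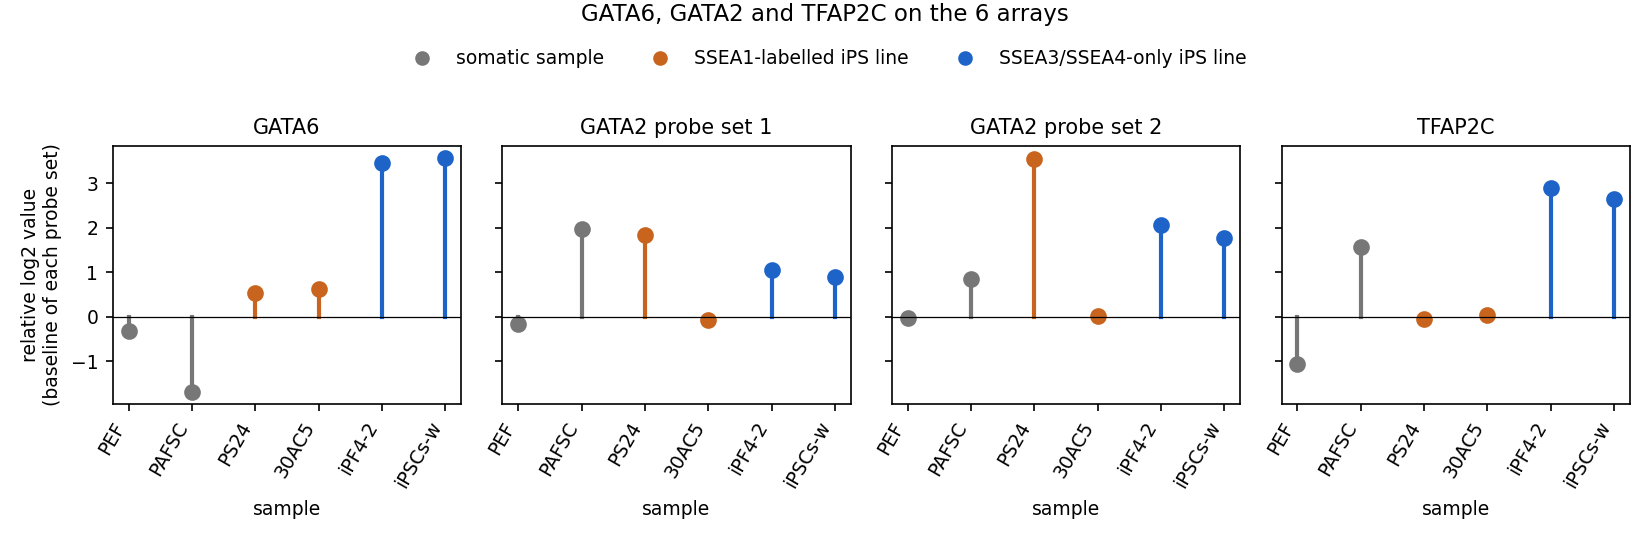
Deposited log2 value (vertical axis, relative to each probe set's own baseline) of the GATA6, GATA2 and TFAP2C probe sets in the 6 samples, with 1 point per array. GATA6 and TFAP2C are highest in iPF4-2 and iPSCs-w, while GATA2 probe set 2 is highest in PS24 at 3.54 and near 0 in 30AC5 and PEF.

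GATA2 followed another pattern, with the highest iPS value in PS24 and the lowest in 30AC5. For probe set 1 the log2 value stood at -0.16 in PEF and 1.98 in PAFSC, at 1.83 and -0.07 in PS24 and 30AC5, and at 1.06 and 0.89 in iPF4-2 and iPSCs-w. For probe set 2 it stood at -0.04 in PEF and 0.84 in PAFSC, at 3.54 and 0.01 in PS24 and 30AC5, and at 2.06 and 1.77 in iPF4-2 and iPSCs-w. With both probe sets 30AC5 was within 0.09 of PEF, and the other iPS lines were above them in the order PS24, iPF4-2, iPSCs-w. PS24 and 30AC5 share the SSEA1 label but lay at opposite ends of the iPS lines, with both SSEA3/SSEA4-only lines between them. Of all probe sets, 27% had their lowest iPS value in 30AC5 and 8.64% their highest value of the 6 arrays in PS24, as probe set 2 did.

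Most steps in the GATA2 order were small against the spread of the arrays. The step from PS24 to iPF4-2 was 1.48 with probe set 2, which 6.95% of probe sets reached, and 0.78 with probe set 1, which 20.3% reached. The iPF4-2 and iPSCs-w values differed by 0.17 with probe set 1 and 0.29 with probe set 2, which 71.6% and 55.7% of probe sets reached. The 0.96 between iPSCs-w and 30AC5 with probe set 1 was reached by 18.2%. With probe set 2 these lines were further apart, at 1.77 and 0.01. PAFSC, at 0.84, lay between them, so no share of probe sets was counted for that gap. PAFSC had the highest value of probe set 1, but the 0.15 that set it above PS24 was exceeded or equalled by 95.6% of probe sets.

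The GATA2 probe sets gave the same order for the 5 arrays other than PAFSC and differed in size. Probe set 2 minus probe set 1 stood at 0.12 in PEF and -1.14 in PAFSC, at 1.70 and 0.09 in PS24 and 30AC5, and at 1.00 and 0.89 in iPF4-2 and iPSCs-w. The difference was largest in PS24, the array with the lowest mean 5' minus 3' control value. It was negative in PAFSC, the array with the highest mean, although EF1A was negative there. Since the values are relative to each probe set's own baseline, a wider range in 1 probe set is no difference in transcript level. The Pearson correlation between the GATA2 probe sets was 0.70 over the 6 arrays and 0.9995 over the 5 without PAFSC. This describes few points, with both probe sets read on the same samples.

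PAFSC and PEF were compared without a test, with 1 array each. PAFSC minus PEF was -1.38 log2 units for GATA6, 2.14 for GATA2 probe set 1, 0.88 for GATA2 probe set 2 and 2.63 for TFAP2C, against a median of 0.72 over all probe sets. PAFSC was above PEF for 61.9% of all probe sets. After each array was centred on its reporter probe sets, these differences were -3.51, 0.0043, -1.26 and 0.50, so that GATA2 was near 0 with probe set 1 and turned with probe set 2, and TFAP2C was reduced.

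The reporter probe sets show how values spread on each array where there is no pig gene to measure. Since each probe set has its own zero, a reporter at or above a gene's value does not show that the gene was undetected. Of the 64 reporters on the PAFSC array, 33 were at or above GATA2 probe set 1, 59 at or above GATA2 probe set 2, 44 at or above TFAP2C and all 64 above GATA6. All GATA2 and TFAP2C values of PAFSC thus lay within the range of probe sets that have no pig gene to measure. On the PEF array 52 reporters were at or above GATA6, 38 and 22 at or above GATA2 probe sets 1 and 2, and 63 at or above TFAP2C. In iPSCs-w, 0 reporters reached any of the 4 values, and in PS24 0 reached either GATA2 value, while 10 reached GATA6 and 52 TFAP2C. In iPF4-2, 0 reached GATA6, 2 reached TFAP2C and 5 reached each GATA2 value. That array had a few high reporters, with a 95th percentile of 2.42 and a maximum of 3.43. On PEF, PS24, 30AC5 and iPSCs-w these were 0.07 to 0.72 and 0.36 to 0.98. The counts of iPF4-2 thus come from this upper tail, whose cause was not tested. The 30AC5 array had 42 and 30 reporters at or above GATA2 probe sets 1 and 2 and 26 at or above TFAP2C, and 0 at or above GATA6.

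**Figure D2:**
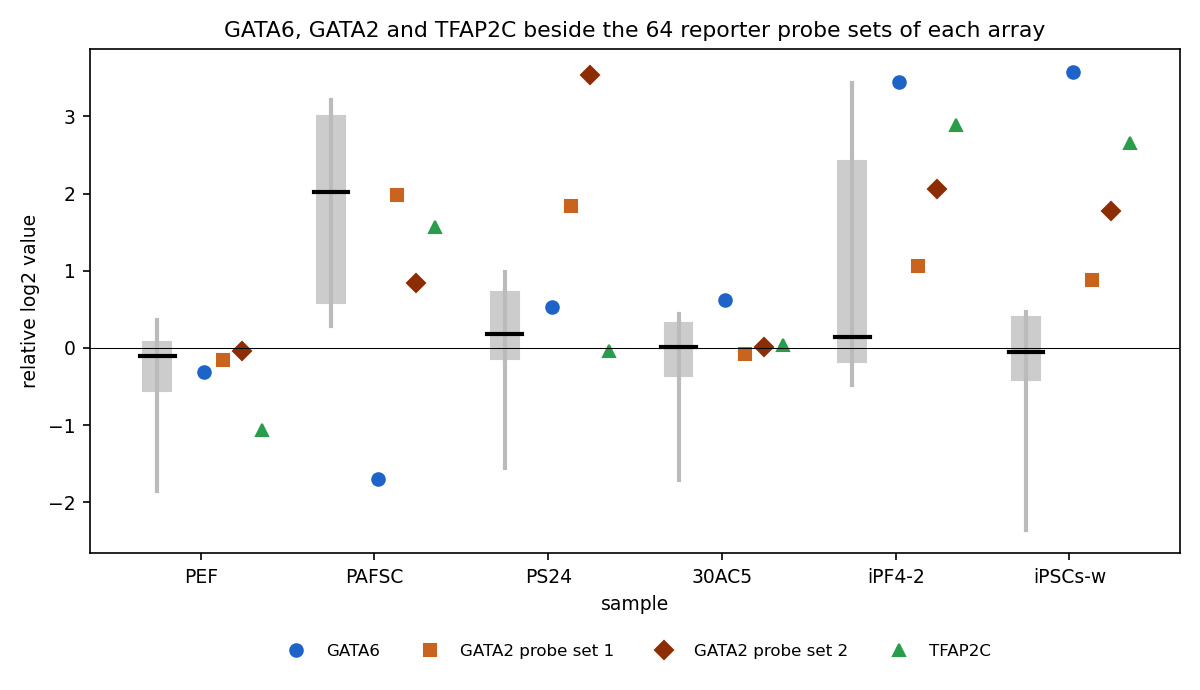
Log2 value (vertical axis) of the 4 probe sets on each array, drawn over the 64 reporter probe sets of the same array: the box spans their 5th to 95th percentile, the thin line their range and the black bar their median. On PAFSC the reporter median is 2.03 and the GATA2 and TFAP2C points lie within the reporter range, while GATA6 in iPF4-2 and iPSCs-w lies above every reporter.

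The first comparison the labels imply set the 4 iPS lines against the somatic samples. GATA6 averaged 2.04 ± 1.69 (SD, n = 4) in the iPS lines, and all 4 lines were above both somatic samples, as for 11.9% of all probe sets. The difference was 3.05 (SE 1.02), with a 95% interval of 0.70 to 5.40, and did not pass the correction (limma, unadjusted p = 0.0170, adjusted p = 0.316). For TFAP2C, with an iPS mean of 1.38 ± 1.60 (SD, n = 4), the difference was 1.13 (SE 1.09) with an interval of -1.38 to 3.63. GATA2 probe set 1 averaged 0.93 ± 0.78 (SD, n = 4) with a difference of 0.02 (SE 0.75), and probe set 2 averaged 1.85 ± 1.45 (SD, n = 4) with a difference of 1.44 (SE 0.89). For these 3 probe sets the iPS lines overlapped the somatic samples. By this test 0 of the 4 probe sets passed an adjusted p of 0.05, where 0.025% of all probe sets did (0.00833% higher), and 1 of the 4 had an unadjusted p under 0.05, as did 13.7% of all.

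Against PEF alone, which leaves the PAFSC array out, all 4 probe sets had positive mean differences. GATA6 differed by 2.36 (SE 1.44), TFAP2C by 2.44 (SE 1.36), GATA2 probe set 1 by 1.09 (SE 0.70) and probe set 2 by 1.88 (SE 1.23). Every iPS line was above PEF with every one of the 4 probe sets, but so were all 4 lines for 32.4% of all probe sets. None passed the correction, with limma adjusted p of 0.562 to 0.622, where 0.567% of all probe sets passed (0.0542% higher and 0.513% lower). The interval for GATA6 ran from -1.26 to 5.98.

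**Figure D3:**
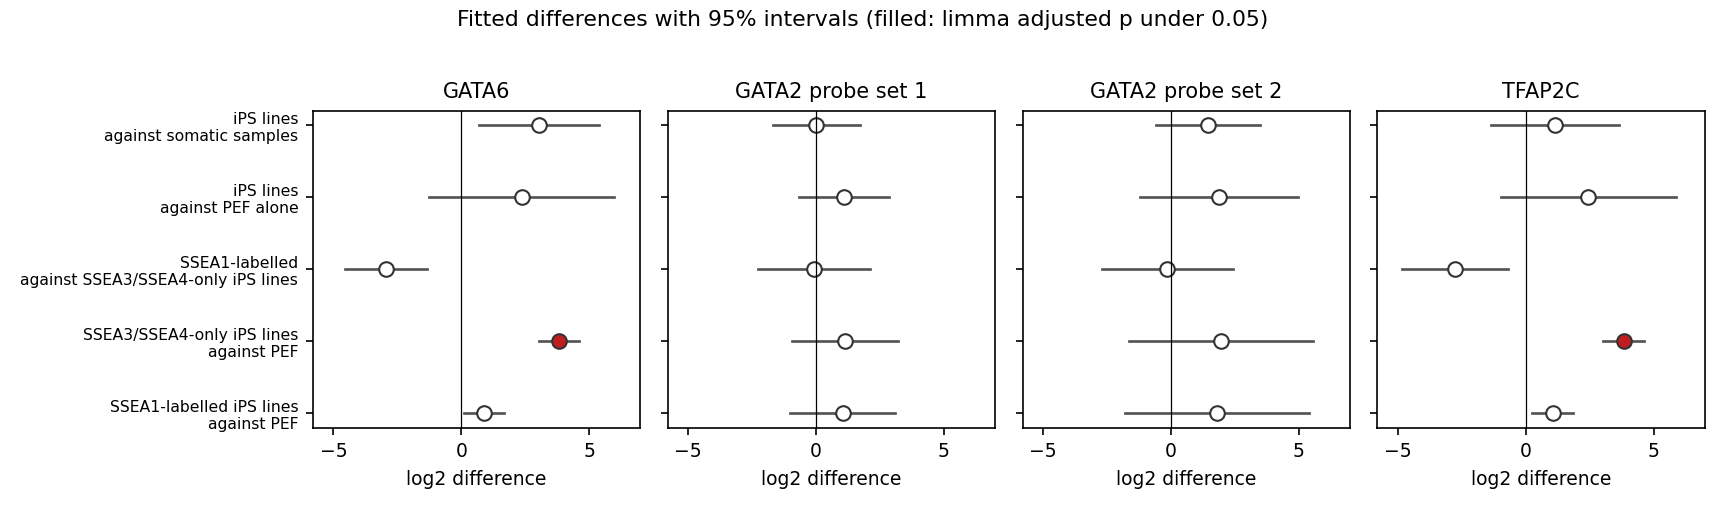
Difference in log2 value with its 95% interval from limma (horizontal axis) for the 4 probe sets in each comparison; filled red points mark an adjusted p under 0.05. GATA6 and TFAP2C are 3.83 above PEF in the SSEA3/SSEA4-only lines with narrow intervals, and the GATA2 intervals include 0 in every comparison.

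The second comparison set the SSEA1-labelled lines against the SSEA3/SSEA4-only lines. GATA6 averaged 0.58 in the former and 3.51 in the latter, a difference of -2.93 (SE 0.69, 95% interval -4.53 to -1.33). TFAP2C averaged 0.00 and 2.77, a difference of -2.77 (SE 0.90, 95% interval -4.85 to -0.69). For both genes the classes did not overlap, as for 20.2% of all probe sets in this direction, but differences as large in size were found for 0.971% and 1.20% of probe sets. Neither passed the correction, with limma adjusted p of 0.669 for GATA6 and 1.00 for TFAP2C (unadjusted p = 0.0030 and 0.0156). In this fit 0% of all probe sets passed, while 2.84% had an unadjusted p under 0.05.

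The spread in that fit was shared with the somatic samples, PAFSC among them. In a fit of only the 4 iPS lines the differences were the same, their SE was 0.25 for GATA6 and 0.26 for TFAP2C, and the limma adjusted p was 0.0555 and 0.0597, where 0.0167% of all probe sets passed. After quantile normalization GATA6 differed by -3.05 with a limma adjusted p of 0.0479, in a setting that called 95 probe sets. TFAP2C differed by -2.96 there and did not pass (limma adjusted p = 0.129). GATA6 passed in no other setting of this comparison. With the lowest 40% by mean left out, for example, its limma adjusted p was 0.239. GATA2 did not separate the classes: the difference was -0.09 for probe set 1, with an interval of -2.27 to 2.09, and -0.14 for probe set 2, with an interval of -2.69 to 2.41. These intervals are wide enough to hold a difference of 2 log2 units in either direction.

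To describe each marker class against the same somatic sample, both classes were also set against PEF, a comparison added after the values had been seen. Because PEF is 1 array shared by both, its own deviation enters each difference. In the SSEA3/SSEA4-only lines GATA6 rose by 3.83 log2 units (SE 0.30, 95% interval 3.04 to 4.61), and TFAP2C rose by 3.83 (SE 0.31, 95% interval 3.02 to 4.63). Both had a limma adjusted p of 0.0251, and 2 of 4 probe sets were called higher, against 0.358% of all probe sets; 1.14% were called lower. GATA6 was 3.76 above PEF in iPF4-2 and 3.89 in iPSCs-w, and TFAP2C 3.95 and 3.71. No fold is given, since detection calls were not used and it is unknown whether either probe set was above background in PEF. There 52 of the 64 reporters were at or above GATA6 and 63 at or above TFAP2C. With a separate zero for each probe set, these counts cannot decide it.

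These calls rest on few arrays. Leaving out any 1 of the 4 iPS lines (PS24, 30AC5, iPF4-2 or iPSCs-w) kept the differences at 3.76 to 3.89 for GATA6 and 3.71 to 3.95 for TFAP2C but ended both calls, with limma adjusted p of 0.0572 to 0.107 and of 0.0572 to 0.101. Each of these left 0 of 23999 probe sets called. With a mean-dependent prior variance in limma, the call of GATA6 ended (adjusted p = 0.0999) and that of TFAP2C held (adjusted p = 0.0387).

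In the SSEA1-labelled lines neither gene passed against PEF. GATA6 differed by 0.89 (SE 0.30, limma adjusted p = 0.350) and TFAP2C by 1.06 (SE 0.31, limma adjusted p = 0.292), and 0 of 4 probe sets were called against 0.375% of all (0.0583% higher). GATA2 passed in neither class, with differences of 1.13 and 1.95 for probe sets 1 and 2 in the SSEA3/SSEA4-only lines and of 1.04 and 1.81 in the SSEA1-labelled lines. In the latter class PS24 was 1.99 and 3.57 log2 units above PEF and 30AC5 0.09 and 0.05.

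Of the 13 listed members and cofactors of the GATA and AP-2 families, 6 genes were measured, by 12 probe sets. Besides the genes above these were GATA3, a trophectoderm factor, GATA4, which acts with GATA6 in endoderm and heart, and TFAP2B, an AP-2 factor of neural crest and kidney. In the SSEA3/SSEA4-only lines against PEF, GATA6 and TFAP2C were the only ones of the 12 to pass, both higher. The 8 probe sets of GATA3, GATA4 and TFAP2B had a median of 0.12 there, equal to 2 decimals to that of all probe sets, with 4 higher and 4 lower. In the SSEA1 comparison 7 of these 8 were higher in the SSEA1-labelled lines and 0 were called. Their median was 0.21 against 0.01 over all probe sets. Of the 7, 4 were of GATA3, and those of TFAP2B differed by only 0.06 and 0.09, so the count shows no trend of the family. Against PEF, 5 of the 8 were higher in the mean of the iPS lines, with 0 called.

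GATA3 ran opposite to GATA6 among the iPS lines. The first of its 4 probe sets was at 1.53 in PEF and 1.23 in PAFSC, at 3.46 and 1.35 in PS24 and 30AC5, and at -0.01 and -0.78 in iPF4-2 and iPSCs-w. Both SSEA1-labelled lines were above both SSEA3/SSEA4-only lines, as for 21% of all probe sets, with a difference of 2.80 (SE 0.83, limma adjusted p = 1.00). The other 3 probe sets differed by 0.33 to 2.70 in the same direction and none passed; in 1 of them (difference 0.33) the classes overlapped. PS24 was thus the highest iPS line for GATA3 as for GATA2.

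GATA4 did not follow GATA6 across the lines. Its first probe set was at -0.71 in PEF and 2.29 in PAFSC, at 0.35 and -0.24 in PS24 and 30AC5, and at -0.31 and 0.26 in iPF4-2 and iPSCs-w. Its second was at -0.16, 0.03, 0.52, -0.03, 0.29 and 1.46 in the same order of samples. The high values were in different samples, PAFSC with the first and iPSCs-w with the second. The TFAP2B probe sets stayed between -0.24 and 0.26 on every array but PAFSC, where they were at 2.08 and 2.33. Of the 12 family probe sets 9 lay within the reporter range on PAFSC, as did 56.7% of all probe sets.

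**Figure D4:**
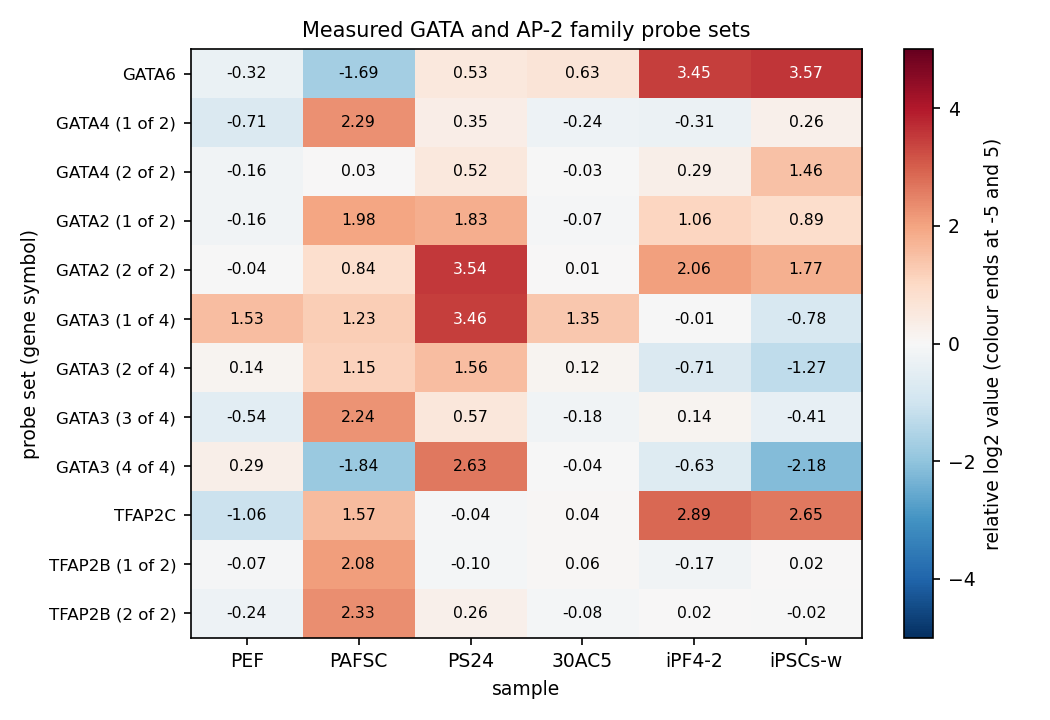
Log2 values of the 12 probe sets of GATA and AP-2 family genes (rows) in the 6 samples (columns), with the value printed in each cell and colour running from low to high. GATA6 and TFAP2C are high in iPF4-2 and iPSCs-w, GATA3 and GATA2 are highest among the iPS lines in PS24, and TFAP2B is near 0 outside PAFSC.

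The primitive endoderm list held 36 genes, of which 24 were measured by 42 probe sets. In the SSEA3/SSEA4-only lines against PEF, 2 of the 42 passed, both higher, against 0.358% of all probe sets. They were GATA6 itself and APOA2, an apolipoprotein of visceral endoderm and liver. APOA2 was at -0.44 in PEF and 2.56 in PAFSC, at 0.20 and -0.09 in PS24 and 30AC5, and at 2.67 and 2.70 in iPF4-2 and iPSCs-w. It split the iPS lines as GATA6 did, 3.13 above PEF in the SSEA3/SSEA4-only lines (SE 0.32, limma adjusted p = 0.0345), but the PAFSC value was almost as high. That PAFSC value lay within the reporter range of its array, 0.28 to 3.21, as did 56.7% of all probe sets. The median of the 42 in that comparison was 0.06 against 0.12 over all probe sets. In the SSEA1 comparison 21 were higher, 21 lower and 0 called.

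Other genes of primitive endoderm took other patterns. HHEX, a homeobox factor of early endoderm and of blood vessels, was at -1.99 in PEF and 0.97 in PAFSC, at 2.76 and 2.30 in PS24 and 30AC5, and at -0.78 and 0.33 in iPF4-2 and iPSCs-w. Its high values were in the SSEA1-labelled lines, 2.75 above the other class, while a second HHEX probe set differed by 0.24. FOXA1, an endoderm pioneer factor, was at -3.26, -2.22, 0.98, 0.77, -0.34 and -1.74 in the same order, also highest in those lines. DAB2, an endocytic adaptor of extraembryonic endoderm, was at 4.08 in PEF and 4.38 in 30AC5 and between -1.30 and 0.29 elsewhere, and its other 2 probe sets were also highest in 30AC5. Of the 6 listed primitive endoderm markers 3 were measured: GATA6, GATA4 and HNF4A, a nuclear receptor of visceral endoderm and liver. Without GATA6, the mean of the other 2 was 0.16 in iPF4-2 and 0.45 in iPSCs-w, against 0.42 in PS24, 0.00 in 30AC5, -0.20 in PEF and 1.57 in PAFSC. These markers did not set the SSEA3/SSEA4-only lines apart as GATA6 did.

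The trophectoderm list held 39 genes, of which 28 were measured by 45 probe sets. In the SSEA3/SSEA4-only lines against PEF, TFAP2C was the 1 that passed, where 0.358% of all probe sets were called higher. The median of 0.12 equalled that of all probe sets to 2 decimals. In the SSEA1 comparison 23 were higher, 22 lower and 0 called. KRT18, a keratin of simple epithelia and trophectoderm, was at -0.68 in PEF and 0.68 in PAFSC, at -1.93 and 1.12 in PS24 and 30AC5, and at 3.34 and 2.81 in iPF4-2 and iPSCs-w. KRT8, its partner, was at 0.94, -2.04, -1.40, 1.93, 3.19 and 3.45 with 1 probe set and at 0.09, 1.50, -0.01, 0.91, 0.83 and -0.57 with the other. The keratins were high in the same lines as TFAP2C with 1 KRT8 probe set and with KRT18, and the step from 30AC5 down to PS24 was wider for them than for TFAP2C. Their differences in the SSEA1 comparison, -3.49 (SE 1.05) for KRT18 and -3.05 (SE 1.28) for the first KRT8 probe set, did not pass. Other genes with large differences in this list did not follow TFAP2C. PTGS2 was at 3.72 in PEF and between -1.96 and 1.26 in the iPS lines. A PPARG probe set was at 2.15 in PEF and between -0.19 and 0.15 in the iPS lines. DAB2 and the first GATA3 probe set were higher in the SSEA1-labelled lines, by 2.97 and 2.80, and did not pass.

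**Figure D5:**
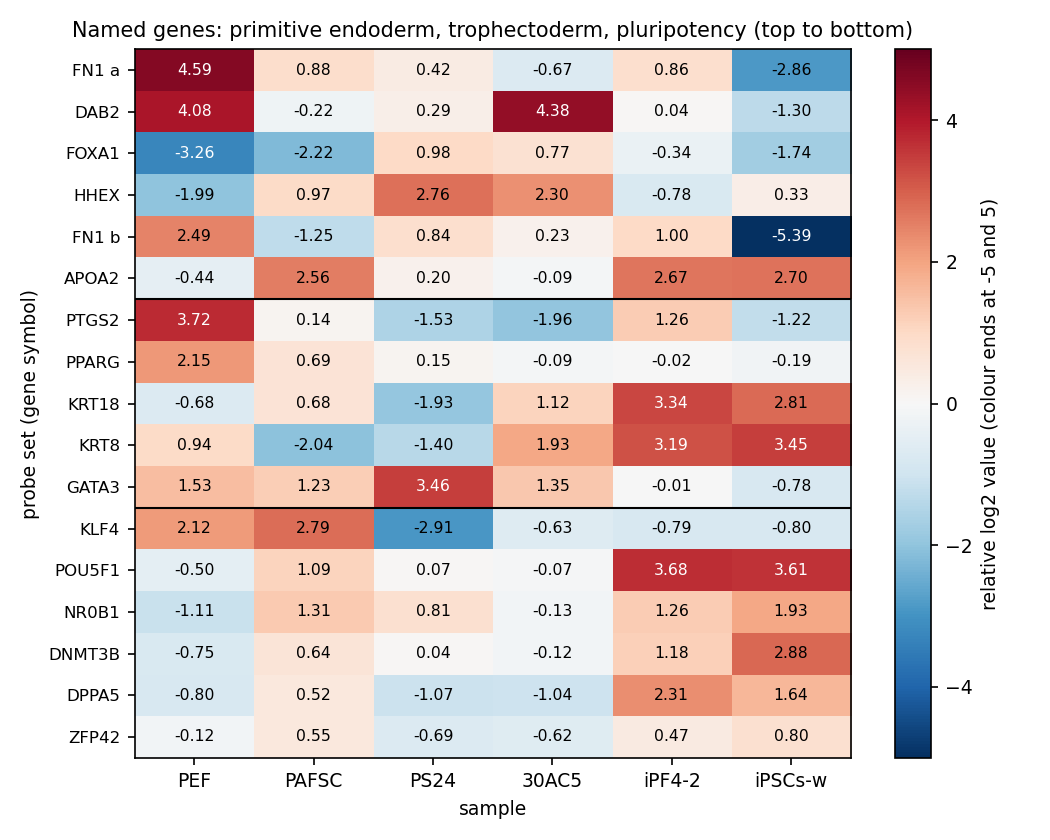
Log2 values of the genes with the largest differences in the primitive endoderm, trophectoderm and pluripotency lists (rows, parted by black lines in that order) in the 6 samples (columns), with the value printed in each cell and colour running from low (blue) to high (red). POU5F1, APOA2 and KRT18 are high in iPF4-2 and iPSCs-w like GATA6 and TFAP2C, whereas HHEX and FOXA1 are higher in PS24 and 30AC5.

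The pluripotency factor POU5F1 split the lines as GATA6 and TFAP2C did. This gene, also called OCT4, was at -0.50 in PEF and 1.09 in PAFSC, at 0.07 and -0.07 in PS24 and 30AC5, and at 3.68 and 3.61 in iPF4-2 and iPSCs-w. It was the 1 of 6 measured pluripotency probe sets (19 genes listed) called higher in the SSEA3/SSEA4-only lines against PEF. Its difference was 4.15 (SE 0.30, limma adjusted p = 0.0251), where 0.358% of all probe sets were called higher. In the SSEA1 comparison the SSEA1-labelled mean was the lower one for all 6 (median -1.68, 0 called). PS24 and 30AC5, both labelled pluripotent, thus had values of POU5F1 within 0.57 of PEF. DPPA5, an RNA-binding protein of pluripotent and germ cells, was at -0.80, 0.52, -1.07, -1.04, 2.31 and 1.64 in the same order of samples.

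The primordial germ cell list, which holds TFAP2C, had 6 of 13 genes measured. Against PEF in the SSEA3/SSEA4-only lines TFAP2C was called higher, and ITGB3, an integrin subunit, fell by 3.39 (SE 0.37, limma adjusted p = 0.0379). ITGB3 was at 3.09 in PEF and between -0.56 and 0.29 in the 4 iPS lines. KLF4, a pluripotency factor also on this list, was at 2.12 in PEF and 2.79 in PAFSC, at -2.91 and -0.63 in PS24 and 30AC5, and at -0.79 and -0.80 in iPF4-2 and iPSCs-w, lowest in PS24.

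Blood and endothelial genes bear on GATA2. Of the 20 listed, GATA2 itself among them, 14 were measured by 23 probe sets. In the mean of the iPS lines 19 of the 23 were higher than in PEF, with 0 called. The 2 GATA2 probe sets are among the 19. The median was 0.26 against 0.13 over all probe sets, so most of all probe sets were higher there too. SELP, P-selectin of platelets and endothelium, was at 0.12 in PEF and 1.89 in PAFSC, at 5.07 and 0.19 in PS24 and 30AC5, and at 0.20 and 0.00 in iPF4-2 and iPSCs-w. PS24, the line with the highest GATA2 values, stood alone. LMO2, a partner of GATA factors in blood progenitors, was at -0.08, 0.61, 1.75, 1.42, -0.85 and 0.08 in the same order, high in PS24 and in 30AC5, where GATA2 was lowest. ERG, an endothelial ETS factor, fell by 4.24 in the SSEA3/SSEA4-only lines against PEF (SE 0.36, limma adjusted p = 0.0251). It was at 3.62 in PEF and 5.59 in PAFSC, and between -0.75 and 0.38 in the iPS lines.

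Of the heart and gut list 10 of 21 genes were measured by 13 probe sets, and GATA6 was the 1 called higher in the SSEA3/SSEA4-only lines against PEF. In the amnion list, 5 of 11 genes by 9 probe sets, IGFBP5, a binding protein of insulin-like growth factors, fell by 3.23 in the iPS lines against PEF (SE 0.31, limma adjusted p = 0.0338). Epithelial genes, 15 of 17 by 22 probe sets, had 15 lower and 7 higher in the SSEA1-labelled than in the SSEA3/SSEA4-only lines, with a median of -0.59 and 0 called. CDH1, the adhesion protein E-cadherin, was the 1 of these called higher in the SSEA3/SSEA4-only lines against PEF, by 6.04 (SE 0.74, limma adjusted p = 0.0424). Its other probe set differed by 0.85 (limma adjusted p = 0.461). The largest epithelial difference between the marker classes ran the other way. MAL2 was higher by 6.28 in the SSEA1-labelled lines (SE 0.82, limma adjusted p = 0.214). Its values there were 5.64 (PS24) and 5.19 (30AC5), against -1.90 and 0.17 in the other class. A second MAL2 probe set differed by 0.54 in the same direction. EPCAM, an epithelial adhesion protein, was at -1.67 in PEF and 0.16 in PAFSC, at -0.16 and -1.03 in PS24 and 30AC5, and at 3.18 and 4.98 in iPF4-2 and iPSCs-w.

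Fibroblast genes were lower in the iPS lines than in PEF. Of the 18 measured genes of 21 listed, 26 of 31 probe sets were lower in the iPS lines than in PEF, with a median of -3.21 against 0.13 over all probe sets. Of the 31, 5 were called lower, against 0.513% of all probe sets, and 10 in the SSEA3/SSEA4-only lines, against 1.14%. The mean of 9 of 10 fibroblast markers was 3.37 in PEF and 3.30 in PAFSC, against 0.38 in iPF4-2, 0.01 in PS24, -0.18 in 30AC5 and -1.19 in iPSCs-w. Their part in the differences of GATA6, GATA2 and TFAP2C from PEF was not tested. In iPF4-2, LUM, an extracellular matrix proteoglycan, was at 3.77 beside 7.34 in PEF, while iPSCs-w, whose GATA6 and TFAP2C values were close to those of iPF4-2, was at -0.69. Of 8 listed names of amniotic fluid stem cell markers, which give THY1 also as CD90, 5 were measured. Their mean was 0.16 in PAFSC against 0.14 to 1.08 elsewhere, so this mean did not set PAFSC apart. Its members differed: ENG was highest in PAFSC at 1.57 and ITGB1 lowest there at -3.72. THY1, VIM and POU5F1 were neither highest nor lowest in PAFSC.

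The genes most like GATA6 depended on whether PAFSC was counted. Over the 6 arrays they were CKB, GLRX, MKRN1, RMND5A and TSTD1, with Pearson r of 0.97 to 0.99. Over the 5 arrays without PAFSC the closest of the compared probe sets was TFAP2C (r = 0.9964), followed by HSD17B2, APOA2, POU5F1 and FBXW7 (r of 0.9896 to 0.9950). For TFAP2C over the 5 arrays they were GATA6, CKB, PYGM, APOA2 and POU5F1, and over the 6 PYGM, FBXW7, HTRA4, LDHC and CCK. Between GATA6 and TFAP2C themselves r was 0.65 over the 6 arrays and 0.9964 over the 5. With so few arrays, and all probe sets read on the same samples, many probe sets reach such values, and these are descriptions only.

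GATA2 had other neighbours. For probe set 1 they were VARS2, TTLL3, ALG5, WRAP53 and KLHL18 over the 6 arrays (highest r = 0.98) and BMS1, THOP1, VARS2, ALG5 and RPL27 over the 5. For probe set 2 they were SF1, ITPR3, TRPM7, BTG2 and PLEKHA8 over the 6 (highest r = 0.87) and ITPR3, ITM2A, TYSND1, BTG2 and SF1 over the 5. Candidates needed an SD of at least 50% of that of the probe set compared, which left 4654 for probe set 1 and 1869 for probe set 2 over the 5 arrays, so the lists of the GATA2 probe sets were drawn from different candidates. Their correlation with GATA6 over the 5 arrays was 0.37 and 0.35, and with TFAP2C 0.39 and 0.37.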

How the data were processed

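Per the labels' protocols, biotin-labelled cRNA made from total RNA was hybridised. The authors deposited 1 log2 value per array for each of 24123 probe sets, with 0 missing. The sources used here do not give their software, background correction, normalization or baseline, so scale between arrays and centring stay unknown. The 124 array controls were left out and the 64 reporter probe sets kept. The platform annotation gave 1 symbol to 10069 of the remaining 23999 probe sets, several to 198 and none to 13732.

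Differences were fitted over all 23999 with limma 3.58.1 in R 4.3.3 (lmFit and eBayes, two-sided, Benjamini-Hochberg, threshold 0.05). The fits were iPS against somatic (2 classes, 6 arrays), iPS against PEF (5 arrays), SSEA1-labelled against SSEA3/SSEA4-only (3 classes, 6 arrays) and, added after seeing the data, each marker class against PEF (5 arrays). With 1 PEF array, PEF is assumed to vary like the iPS lines. Code was tested on simulated data. The small number of arrays limits the precision.

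The genes and the 10 gene lists (179 genes, 110 measured) were chosen with earlier results of these data known. Named were all probe sets of the GATA and AP-2 list, and candidates from the other lists were the 4 largest differences against PEF and the 4 largest between marker classes. Some of these are printed, and HNF4A, ITGB3, ERG, IGFBP5, CDH1, ENG, ITGB1, THY1 and VIM also as calls or markers. Likeness used the 5 probe sets with 1 symbol of highest r whose SD was at least 50% of that of the gene compared. Alternatives were quantile normalization, median centring, leaving out the lowest 40% by mean, eBayes with trend or robust (statmod 1.5.0), 1 probe set per gene, only the iPS lines, each sample left out, and, added later, reporter centring and leaving out PAFSC and PS24 together. No genome or sequence table was used.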

Additional observations from a re-analysis of the deposited data

Results flagged for a closer look

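In 4 of 53 probe sets tested among the 4 iPS lines, 1 line lay far from the other 3. For genes not chosen by their values chance marks about 1 group in 20. These genes were chosen with earlier results known, so that rate need not hold here. LUM was at 3.77 in iPF4-2, the highest of the lines. FN1, a matrix protein, was at -5.39 in iPSCs-w with 1 of its probe sets, the lowest. SELP was at 5.07 in PS24, the highest. KLF4 was at -2.91 in PS24, the lowest. None of the GATA6, GATA2 and TFAP2C probe sets was among them. Because 2 lines were high together for GATA6 and TFAP2C, a rule for 1 line far from the other 3 could not flag these genes.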

How the results depend on the processing

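Of 251 differences of the 4 probe sets under alternatives, 222 kept direction and side of the threshold. Of the others 9 lost a call, 1 gained a call, 8 changed direction and 11 moved in size. Those 11 are PAFSC minus PEF values, which kept their direction and had no test. Several settings change only the spread or the filter and leave the difference itself fixed, and some gave the same fit. The 222 is therefore no measure of robustness. The cause of these changes was not tested unless stated. Between marker classes, GATA6 after quantile normalization (-3.05) passed in limma and TFAP2C (-2.96) did not. With a trended prior, GATA6 in the SSEA3/SSEA4-only lines against PEF stayed at 3.83 but did not pass. Leaving out 1 line gave 3.76 to 3.89 for GATA6 and 3.71 to 3.95 for TFAP2C in the SSEA3/SSEA4-only lines against PEF, without a call.

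In iPS against somatic, GATA2 probe set 1 was -0.29 without PS24, -0.03 without iPF4-2 and -1.05 without PEF, over a range of -1.05 to 1.09 with 1 sample left out. TFAP2C was -0.19 without PEF, over a range of -0.19 to 2.44. Between marker classes, GATA2 probe set 1 was 0.86 without 30AC5, over a range of -1.04 to 0.86, and probe set 2 was 1.62 without 30AC5 and 0.0019 without iPF4-2, over a range of -1.90 to 1.62.

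PAFSC minus PEF, for GATA6, GATA2 probe sets 1 and 2 and TFAP2C in turn, was -0.29, 0.71, 0.0019 and 1.93 after quantile normalization, -2.13, 1.39, 0.12 and 1.88 after median centring, and -3.51, 0.0043, -1.26 and 0.50 after reporter centring.

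Counts of probe sets called by limma moved. For iPS against somatic (6) the count was 0 with 1 probe set per gene, with reporter centring, and without PAFSC and PS24, 1 with median centring, 2 with a trend, 35 with the lowest 40% left out, and 0 to 14303 with 1 sample left out (136 without PAFSC, 14303 without PEF). For iPS against PEF (136) it was 69 with 1 probe set per gene, 0 after quantile normalization, and 0 to 19 with 1 sample left out. Between marker classes (0) it was 44 with the lowest 40% left out, 4 with only the iPS lines, 95 after quantile normalization, and 0 to 4 with 1 sample left out. For SSEA3/SSEA4-only lines against PEF (360) it was 230 with 1 probe set per gene, 97 after quantile normalization and 0 without any 1 line. For SSEA1-labelled lines against PEF (90) it was 0 after quantile normalization and 0 without any 1 line.

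No paired analysis was possible because the labels give no replicate numbers. Values below background could not be told from low expression, as no detection calls were used.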
